A study of Komagataella phaffii CBS 7435 with 54 samples.

Results

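The transcriptome of Komagataella phaffii (Pichia pastoris) was compared between 2 sampling points early in retentostat cultivation, at run times of 21 h and 116 h, to describe how RNA levels changed over the first days of biomass retention. Each sampling point had 3 numbered replicates, and each replicate had 2 arrays with opposite dyes. The comparison thus covered 12 arrays of the 54 in the series and 6 replicates of 27. All of them were chosen by the run time in the sample titles.

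A retentostat is a chemostat whose outflow passes through a filter, so that spent medium leaves the reactor while the cells stay inside. As biomass builds up on a limited feed of glucose, each cell receives less sugar, and the specific growth rate sinks toward zero without the culture running out of nutrients. An increasing part of the glucose then serves maintenance, the upkeep of existing cells, instead of the formation of new ones. The method is used with yeasts to study cells that barely divide but are alive and metabolically active, a state that differs from starvation.

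Both groups came from the same cultivation setup, glucose limited, aerobic, at 25 °C and a constant pH of 5.85, which had first been run as a steady-state chemostat and then switched to retention with a declining glucose feed. By their labels they differed in run time alone. The sample labels give the strain as CBS 7435, and per the methods of the study the chemostat and retentostat cultures in question were grown with a Δflo8 derivative of it, a single-colony isolate in which KanMX replaces the start of the gene, made because the parent attached to surfaces. The probe of the deleted gene could not be told from the tables read here, so the deletion was not checked. Since the methods describe 2 independent retentostat cultures and the labels number 3 replicates, the replicates cannot all be separate cultures. The p values measure the spread between these samples, which may in part be technical. The study sampled these runs on successive days, so samples of different run times came from the same cultures. The main fit treated the sampling points as independent groups. For comparison, the 3 other retentostat sampling points of the series (65 h, 380 h and 545 h) and the chemostats at 0.025 and 0.1 h−1 were used, each again with 3 replicates. Per the methods, these chemostats ran in a different, smaller bioreactor system, and the study did not compare samples of both systems directly. Growth rate and reactor system cannot be told apart where levels of chemostats and retentostats are set side by side. In the chemostat at 0.1 h−1 the arrays paired under one replicate number disagreed, so the spread given for it is likely too small. Paired arrays also disagreed in the chemostat at 0.05 h−1, at 65 h and, in part, at 545 h. The spreads given there may be too small as well.

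Every value below is a log2 ratio of the culture over a reference pool of RNA from many conditions, which was hybridized on each array. A difference of 1 is a 2-fold change. A probe was called when it changed more than 2-fold with an adjusted p value below 0.05, and changes are given with their standard error (SE). Total RNA of whole cultures was measured, so a change in the share of cells of one kind cannot be told apart from a change in the RNA per cell. The array identifiers are those of the GS115 annotation, and the tables read here pair them with locus tags but not with gene names or functions. Genes are therefore given by identifier, without a role.

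The arrays of both groups were of similar quality. The median culture signal lay between 1440 and 4608 units, and 92.8 to 97.1% of the spots were well above background. Log2 ratios of the 2 arrays of a replicate correlated across probes with r between 0.94 and 0.97. Between replicates, r was 0.963 to 0.987 at 21 h and 0.983 to 0.994 at 116 h, and across the sampling points it fell to between 0.877 and 0.913.

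Replicate 3 did not clearly stand as a separate sample at either sampling point, since its arrays were each closer to a different one of the other replicates. Among arrays with the culture in Cy5, replicate 3 differed from replicate 1 with an SD across probes of 0.084 at 21 h and 0.083 at 116 h, and from replicate 2 with 0.239 and 0.137. Among those with the culture in Cy3 the order was turned, with an SD of 0.127 (21 h) and 0.151 (116 h) from replicate 2 and of 0.211 and 0.165 from replicate 1, a small gap at 116 h. Replicates 1 and 2 differed from each other with 0.176 among the Cy3 arrays at 116 h. The Cy3 array of replicate 3 was thus not clearly close to either there. The SE and p values below count 3 replicates per sampling point and are thus likely too small. The comparison was therefore also fitted with replicates 1 and 2 of both sampling points alone, which left 2 residual degrees of freedom. In the 55 genes called below, the SE was then 1.32 times larger in the median and at most 1.90 times, and 54 had an adjusted p value below 0.05. All kept their direction, which was fixed beforehand because their replicates did not overlap between the sampling points. The adjusted p values of the first 2 increases described below, Pipas_chr1-4_0681 and Pipas_chr1-4_0378, were then 0.000979 and 0.00187, and those of the first 2 decreases, Pipas_chr2-2_0200 and Pipas_chr2-2_0094, were 0.000555 and 0.000979.

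Between 21 h and 116 h many transcripts changed, most of them by little. Of 5371 probes, 1587 were higher and 1599 were lower at 116 h with an adjusted p value below 0.05, which is 59.3% of all probes. With replicates 1 and 2 alone, 1347 probes had an adjusted p value below 0.05 in either direction. In the fit with all replicates, changes with an adjusted p value below 0.05 had a median size of 0.30 on the log2 scale. Over all probes the median size was 0.18, and 95% of all probes changed by less than 0.66. More than 2-fold changes were rare. Only 55 probes, 1.02% of those tested, were called, 28 higher (0.521%) and 27 lower (0.503%) at 116 h. The increases reached 2.23 and the decreases -1.70, with medians of 1.11 and -1.13. Replicates 1 and 2 alone gave 56 calls (30 higher, 26 lower), 49 of them among the 55. The median over all probes was 0.00. With all replicates, no probe beyond 2-fold had an adjusted p value of 0.05 or more, so the number of calls was set by the size of change and not by the test.

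**Figure D1:**
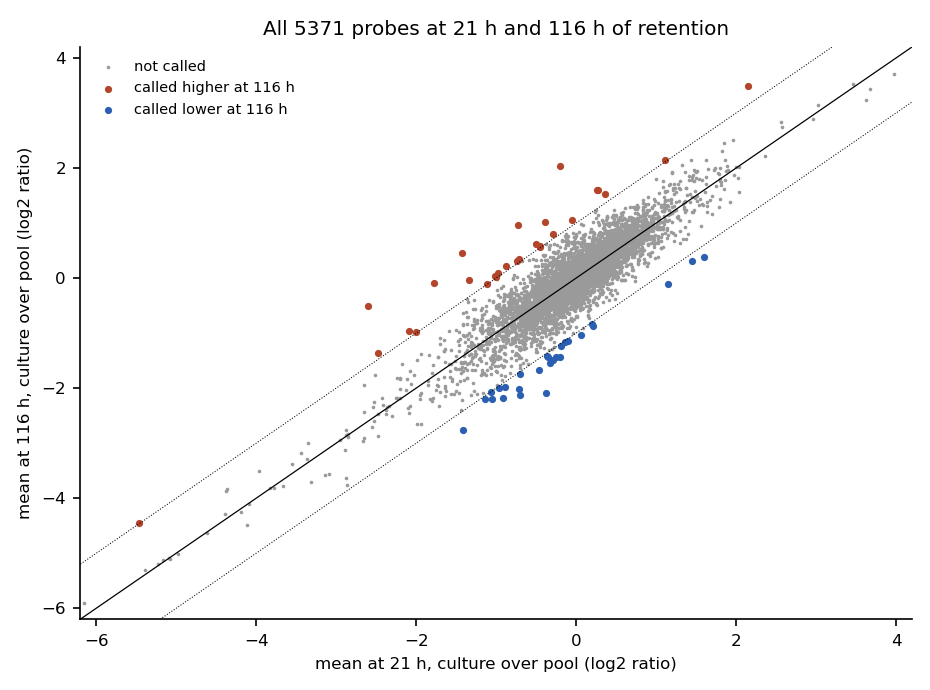
Mean log2 ratio of culture over pool at 116 h (y axis) against 21 h (x axis) for all 5371 probes, each point the mean of 3 replicates, with the line of equality and dotted lines at a 2-fold change. The 28 red and 27 blue points beyond the dotted lines are the called genes, and nearly all other probes lie between the lines.

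The 2-fold criterion cut through a continuous range of changes. The called gene with the smallest increase, Pipas_chr3_0866, changed by 1.002 ± 0.087 (SE), and the first one left out, Pipas_chr3_0449, by 0.998 ± 0.120. On the other side, Pipas_FragD_0010 was called at -1.010 ± 0.100 and Pipas_chr4_0157 was left out at -0.999 ± 0.091.

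All 55 called probes were well above background and none was saturated in the culture channel on any of the 12 arrays. Their 3 values at 116 h did not overlap with the 3 values at 21 h, which also held for 62.8% of all probes. The direction was the same in all 55 genes when only the arrays with the culture in Cy3 or only those with the culture in Cy5 were used, and the change seen with one dye was 0.70 to 1.30 times the mean change. On the single slide that held both sampling points, with replicate 3 of each, all 55 also kept their direction at 0.83 to 1.22 times the full change. Arrays had been read on 2 scanners, and within each of them the direction was again the same in all 55. Since the replicates did not overlap, the direction on the shared slide and within each scanner was fixed beforehand. The genes had been chosen from these same arrays, and the mean change is the average of both dyes. These agreements are therefore no separate support for the calls.

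The largest increase was that of Pipas_chr1-4_0681, which corresponds to open reading frame PP7435_Chr1-1232 of CBS 7435. Its log2 ratio was -0.39, 0.05 and -0.26 in the replicates at 21 h and 1.86, 2.23 and 2.00 at 116 h. All values at 116 h were thus far above all values at 21 h, and the change was 2.23 ± 0.11 (SE, adjusted p = 4.54e-13), or 4.7-fold. Most of it was present at 65 h, when the mean was 1.38 ± 0.19 (SD, n = 3). The gene then stayed high, at 2.54 ± 0.04 at 380 h and 2.36 ± 0.21 at 545 h. In the chemostats, run in the other reactor system, it was at -2.58 ± 0.05 at 0.1 h−1 and -1.63 ± 0.04 at 0.025 h−1. Its mean was thus higher at each step from the fastest chemostat to 380 h of retention, with the change of system in between.

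Second was Pipas_chr1-4_0378 (PP7435_Chr1-1165), whose course was different. Its log2 ratio was -2.83, -2.44 and -2.54 at 21 h and -0.14, -0.88 and -0.50 at 116 h, again without overlap but with a wider spread at 116 h. The change was 2.10 ± 0.21 (adjusted p = 1.39e-08), or 4.27-fold. At 380 h the mean was back at -2.72 ± 0.30, and at 545 h it was -3.08 ± 0.16, below that at 21 h. Its level at 116 h was the highest of the 9 conditions. Both chemostats, in the other reactor system, were lower than any retentostat sampling point, at -3.71 ± 0.38 (0.1 h−1) and -3.41 ± 0.12 (0.025 h−1).

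The largest decrease was found for Pipas_chr2-2_0200. Replicates were at -0.43, -0.38 and -0.35 at 21 h and at -1.99, -2.11 and -2.15 at 116 h, and within each sampling point they lay close together. The log2 ratio decreased by 1.70 on average, with an SE of 0.07 (adjusted p = 1.75e-14), which is 3.25-fold. Its mean was already -1.77 ± 0.10 at 65 h and went on to -2.48 ± 0.13 at 380 h and -2.96 ± 0.11 at 545 h.

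Next came Pipas_chr2-2_0094, with -0.67, -0.74 and -0.72 at 21 h and -2.02, -2.24 and -2.13 at 116 h. It changed by -1.42 ± 0.10 (adjusted p = 1.31e-10), or 2.68-fold. As with Pipas_chr2-2_0200, the mean was lower at each later sampling point, with -2.72 ± 0.25 at 380 h and -3.23 ± 0.04 at 545 h. Both genes were above the pool in the chemostat at 0.1 h−1, at 0.95 ± 0.07 for Pipas_chr2-2_0200 and 0.50 ± 0.03 for Pipas_chr2-2_0094.

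**Figure D2:**
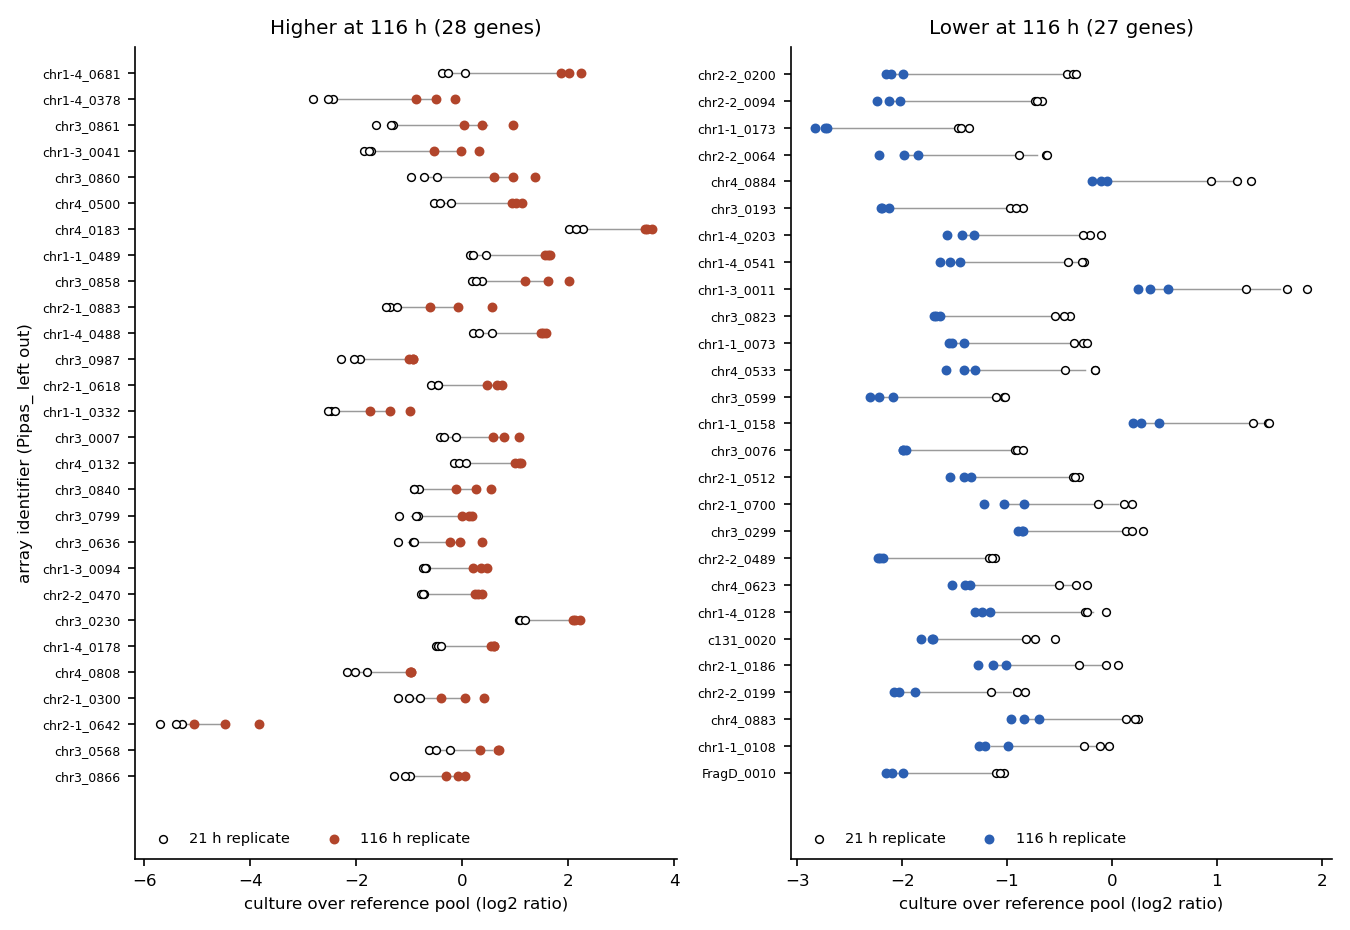
Log2 ratio of culture over pool (x axis) for each of the 28 genes called higher (left) and the 27 called lower (right) at 116 h, sorted by size of change, with open circles for the 3 replicates at 21 h, filled circles for the 3 replicates at 116 h and a line between the means. The 2 sets of circles do not overlap in any row, and several increases, among them chr3_0861 and chr2-1_0642, have widely spread values at 116 h.

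The genes named from here on were chosen after their values had been seen. The least certain of the increases was Pipas_chr2-1_0642, with -5.30, -5.70 and -5.40 at 21 h and -3.84, -5.05 and -4.48 at 116 h. Its change of 1.01 ± 0.30 had the largest adjusted p value of the 55, 0.00615, and was 0.70 without replicate 1 of 116 h. With replicates 1 and 2 alone its adjusted p value was 0.0518, the only one of the 55 above 0.05.

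To see when the changes took place, the 65 h samples were placed between the other sampling points. These comparisons share samples with the one that chose the genes, so their values are given only side by side. Among the 28 increases, the median change was 0.95 from 21 h to 65 h and 0.35 from 65 h to 116 h, and the first step was the larger one in all 28. For the 27 decreases the medians were -0.89 and -0.29, and the first step was larger in 26. The exception was Pipas_c131_0020, with -0.39 ± 0.10 in the first step and -0.66 ± 0.10 in the second. Over all probes the medians of both steps were close to 0 (-0.00 and -0.01). The time steps were of similar length, 44 h and 51 h.

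Over all probes, 16 (0.298%) were called at 65 h against 21 h, 10 higher and 6 lower. At 116 h against 65 h the limma test called none (0%), although 1519 probes had an unadjusted p value below 0.05 and 624 an adjusted one below 0.05, 257 higher and 367 lower. The spread between replicates was larger at 65 h, with a median standard deviation (SD) of 0.092, than at 21 h (0.074) and at 116 h (0.054). The arrays of replicate 3 at 65 h correlated with each other at r = 0.874, the lowest value of the series, so the 65 h level is less well known.

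Whether these early changes lasted was examined by comparing 545 h with 65 h. These samples did not enter the change by which the genes were chosen, only the shared estimate of the spread. Per the study they came from the same retentostat runs. The time from 65 h to 116 h lies within both comparisons, so a change in it counts in both. In that comparison 31 probes (0.577%) were called higher and 77 (1.43%) lower. Of the 27 genes that were lower at 116 h, 16 were called lower between 65 h and 545 h (59.3% of them), and none was called higher. Their changes ranged from -1.49 to 0.20 with a median of -1.09, against a median of -0.01 over all probes. Of these changes, the part from 65 h to 116 h, which also helped to choose the genes, had a median of -0.29. In all 16 genes the mean at 380 h was below that at 116 h, but a further 2-fold decrease after 116 h was not tested. From 65 h to 545 h, Pipas_chr2-2_0094 changed most, by -1.49 ± 0.10 (adjusted p = 2.63e-11). Without replicate 3 of every condition, the count was 10 of 27 instead of 16, and without replicate 3 of 65 h alone it was 14.

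Among the other 11 decreases, some were not followed by a further one. Pipas_chr1-3_0011 (PP7435_Chr1-0007) was at 1.86, 1.27 and 1.67 at 21 h and at 0.54, 0.25 and 0.36 at 116 h. It changed by 0.09 ± 0.13 from 65 h to 545 h (adjusted p = 0.553), and its mean at 545 h was 0.68 ± 0.32. Pipas_chr1-1_0158 (PP7435_Chr1-0468) behaved alike in value, with means of 1.44 ± 0.08 at 21 h, 0.31 ± 0.13 at 116 h and 0.74 ± 0.14 at 545 h. For both genes the groups at 21 h and 116 h were clearly apart, and no further decrease was measured.

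The 28 increases split into courses of different kinds. From 65 h to 545 h, 7 of them (25.0%) were called lower, 2 were called higher and 19 were not called, with changes from -3.04 to 1.90 and a median of -0.20. In the 7 genes called lower, the means at 545 h were all below those at 21 h, and at 380 h all were below those at 116 h. They were Pipas_chr1-4_0378, Pipas_chr3_0861, Pipas_chr3_0860, Pipas_chr3_0858, Pipas_chr3_0840, Pipas_chr2-1_0883 and Pipas_chr2-1_0300. In these 7, therefore, the level was higher at 65 h and 116 h than at any other retentostat sampling point. Without replicate 3 of every condition the counts were again 7 and 2.

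Of these passing increases, Pipas_chr3_0861 fell back the most. Its log2 ratio was -1.31, -1.63 and -1.35 at 21 h and 0.96, 0.03 and 0.38 at 116 h. By 545 h it was at -3.39 ± 0.09. In the chemostat at 0.1 h−1, run in the other reactor system and with a spread likely too small, it was at -3.54 ± 0.02. The change from 65 h to 545 h was -3.04 ± 0.26 (adjusted p = 1.13e-09). A similar course was measured for Pipas_chr2-1_0883, at -1.35 ± 0.10 at 21 h, -0.04 ± 0.59 at 116 h and -3.04 ± 0.07 at 545 h.

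Replicates differed more in these 7 genes than in most others. At 116 h their SD lay between 0.33 and 0.59, against a median of 0.05 over all probes, while at 21 h it was 0.05 to 0.24. In all 7, replicate 1 of 116 h was the highest and replicate 2 the lowest, and the mean of the arrays of replicate 3 lay between. Pipas_chr2-1_0883, for example, was at 0.72 (Cy3) and 0.40 (Cy5) in replicate 1, at -0.44 and -0.77 in replicate 2, and at -0.51 and 0.35 in replicate 3. The arrays of replicate 3 thus disagreed, one being close to replicate 2 and the other to replicate 1. The level at 116 h is thus less well known for these genes than their direction.

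Both genes that were called higher between 65 h and 545 h rose over the whole run. Pipas_chr3_0987 was at -2.30, -1.94 and -2.04 at 21 h, and at -0.93, -1.01 and -0.93 at 116 h. It reached 0.14 ± 0.15 at 380 h and 0.42 ± 0.04 at 545 h, and rose by 1.90 ± 0.12 from 65 h to 545 h (adjusted p = 5.25e-12). Pipas_chr3_0007 was at -0.30 ± 0.15 at 21 h, 0.81 ± 0.25 at 116 h and 1.57 ± 0.03 at 545 h.

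**Figure D3:**
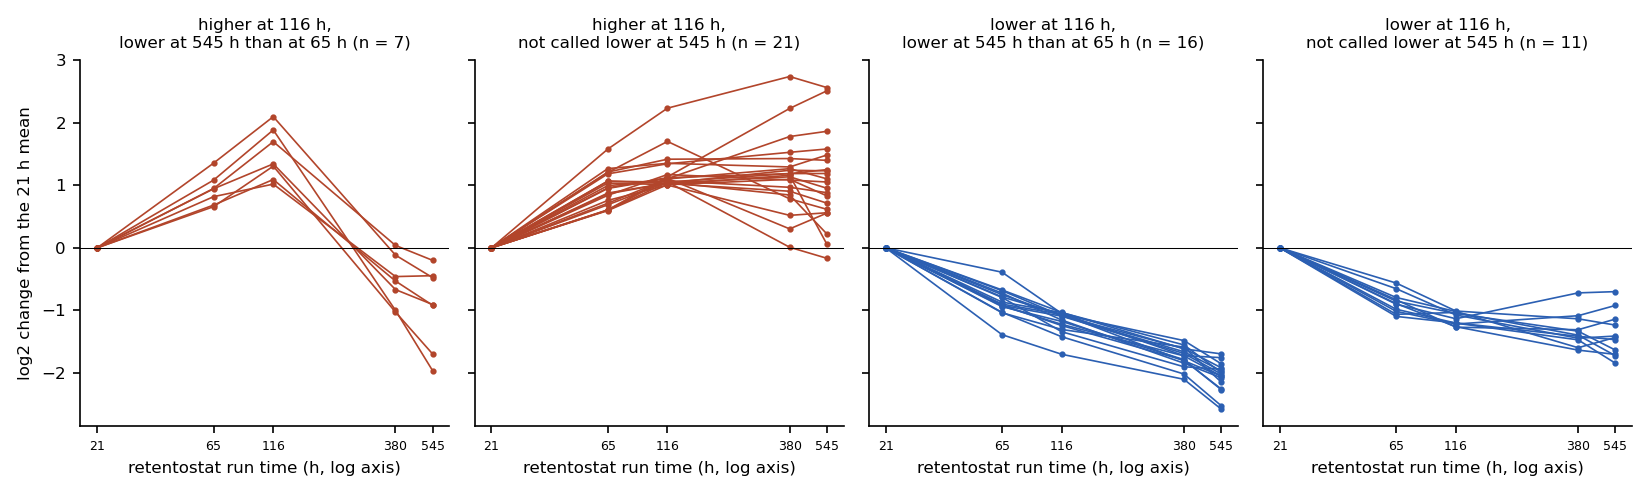
Mean log2 change from the 21 h mean (y axis) over the retentostat run time in hours (x axis, log scale), one line per gene and each point the mean of 3 replicates. From left to right, 7 increases fell back below their 21 h level, and 21 increases were not called lower at 545 h than at 65 h. Next are 16 decreases called lower at 545 h than at 65 h, and 11 decreases that were not.

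Growth rate also differs between chemostats, and the slowest and the fastest of the series (0.025 against 0.1 h−1) share no sample with the retentostat comparison. They ran in the other reactor system, so each change below was taken within one system, and a difference between both changes may also reflect the system. Between these chemostats 61 probes (1.14%) were called higher and 15 (0.279%) lower at 0.025 h−1. Of the 28 genes that were higher at 116 h, 3 were called higher in the slow chemostat (10.7% of them) and none lower. These 3 were Pipas_chr4_0183, Pipas_chr3_0230 and Pipas_chr3_0861, and the count was 7 when the log ratio of the scanner software or an offset of 0 was used. Of the 27 genes that were lower at 116 h, none was called lower and 1 was called higher. The medians of the chemostat change were 0.48 for the increases and -0.21 for the decreases, against 0.04 over all probes. In sign, 24 of the 28 increases and 23 of the 27 decreases ran the same way in the chemostats as in retention. The share over all probes was not computed, so no conclusion is drawn from these counts. Some of the chemostat changes counted were close to 0, such as -0.01 ± 0.07 in Pipas_chr3_0823.

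Pipas_chr4_0183 had the largest chemostat change of the 55. It stood at -3.59 ± 0.10, -2.62 ± 0.07, -1.34 ± 0.08 and 0.32 ± 0.22 in the chemostats from 0.1 down to 0.025 h−1. In retention it was at 2.01, 2.28 and 2.14 at 21 h and 3.44, 3.58 and 3.48 at 116 h. From 65 h (3.41 ± 0.20) to 545 h (3.63 ± 0.12) it changed by 0.22 ± 0.10 (adjusted p = 0.0571). The increase in retention was 1.35 ± 0.10 and that between the chemostats 3.91 ± 0.10, and the former minus the latter was -2.56 ± 0.14 (adjusted p = 1.35e-12).

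A direct test of the difference between both changes, over all probes, called 27 (0.503%) as more positive and 56 (1.04%) as more negative in retention than between the chemostats. Among the 55 genes, whose retention change had been used to choose them, 7 of the increases were in the first set and 8 of the decreases in the second. Pipas_chr3_0860 was an example of the former, with 1.70 ± 0.14 in retention and -0.13 ± 0.14 between the chemostats. Of the latter, Pipas_chr1-1_0173 (PP7435_Chr1-0483) changed by -1.34 ± 0.14 in retention and by -0.01 ± 0.14 between the chemostats. It was at -1.46, -1.36 and -1.44 at 21 h and at -2.74, -2.83 and -2.72 at 116 h.

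One gene was called in opposite directions. Pipas_c131_0020 (PP7435_Chr3-0001) was higher in slower chemostats, with -1.48 ± 0.05 at 0.1 h−1 and -0.38 ± 0.07 at 0.025 h−1, a change of 1.103 ± 0.100 (adjusted p = 1.77e-09). In retention it was at -0.82, -0.54 and -0.73 at 21 h and at -1.82, -1.72 and -1.70 at 116 h, a change of -1.05 ± 0.10 (adjusted p = 8.04e-09). Its level at 545 h, -2.45 ± 0.09, was the lowest of the 9 conditions, with that at 380 h (-2.42 ± 0.18) within its spread.

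**Figure D4:**
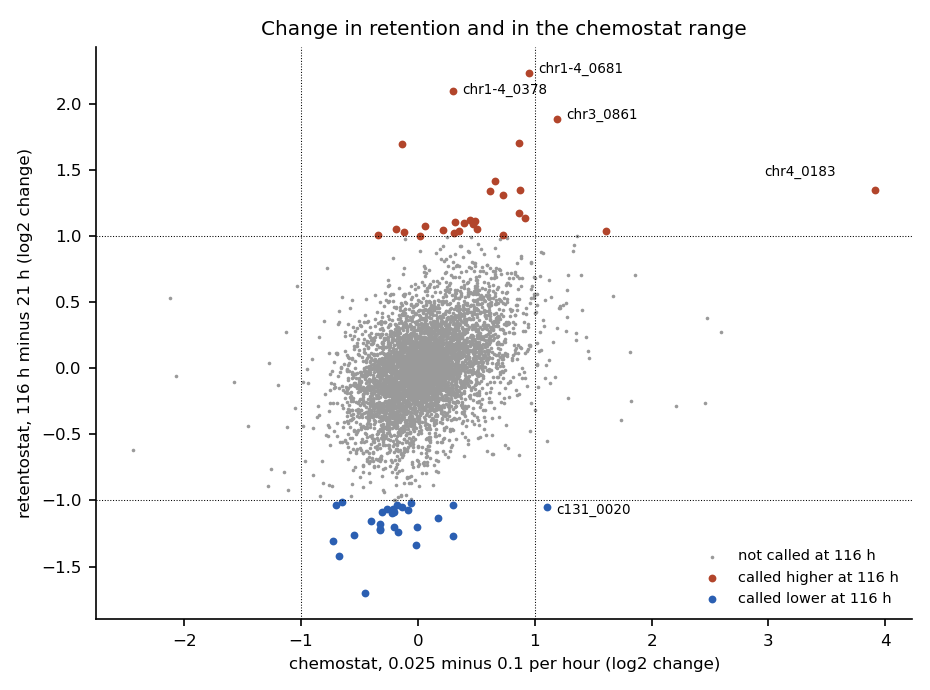
Log2 change from 21 h to 116 h in the retentostat (y axis) against the log2 change between the chemostats at 0.025 and 0.1 h−1 (x axis) for all 5371 probes, with dotted lines at a 2-fold change. Most of the 55 called genes lie between the vertical lines, chr4_0183 lies far to the right, and c131_0020 is the only called decrease to the right of them.

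The called genes were spread over all 4 chromosomes. Of those with a locus tag, 15 lay on chromosome 1 (0.975% of those tested there), 12 on chromosome 2 (0.9%), 16 on chromosome 3 (1.34%) and 8 on chromosome 4 (0.824%). Gene order was taken from the GS115 assembly ASM2700v1, and no coordinates are given because the build behind the array is not named in the sources used here. In 3 cases direct neighbors were both called. Pipas_chr2-2_0199 and Pipas_chr2-2_0200 both fell, by 1.03 and 1.70. Pipas_chr4_0883 and Pipas_chr4_0884 fell by 1.03 and 1.27, and both were slightly higher in the slow than in the fast chemostat (by 0.30 each). Between 65 h and 545 h this last pair parted. Pipas_chr4_0883 changed by -1.02 ± 0.06 and Pipas_chr4_0884 by -0.31 ± 0.09.

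Pipas_chr3_0860 and Pipas_chr3_0861 made up the third pair. Pipas_chr3_0860 was at -0.48, -0.97 and -0.72 at 21 h and at 1.37, 0.60 and 0.95 at 116 h. One gene further, with Pipas_chr3_0859 between them, Pipas_chr3_0858 was at 0.18, 0.36 and 0.26 at 21 h and at 2.02, 1.19 and 1.62 at 116 h. All 3 belonged to the increases that later fell back, and their changes over the first days, in gene order, were 1.34 ± 0.17, 1.70 ± 0.14 and 1.88 ± 0.26. The gene between them, Pipas_chr3_0859, changed by -0.19 ± 0.05 (adjusted p = 0.00107), and the next one along, Pipas_chr3_0862, by -0.79 ± 0.07 (adjusted p = 2.18e-09). The increase was therefore not shared by every gene of the stretch. Pipas_chr3_0866, 5 genes beyond Pipas_chr3_0861, was also called, and its mean of -0.56 ± 0.05 at 545 h stayed above that of -1.12 ± 0.15 at 21 h.

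**Figure D5:**
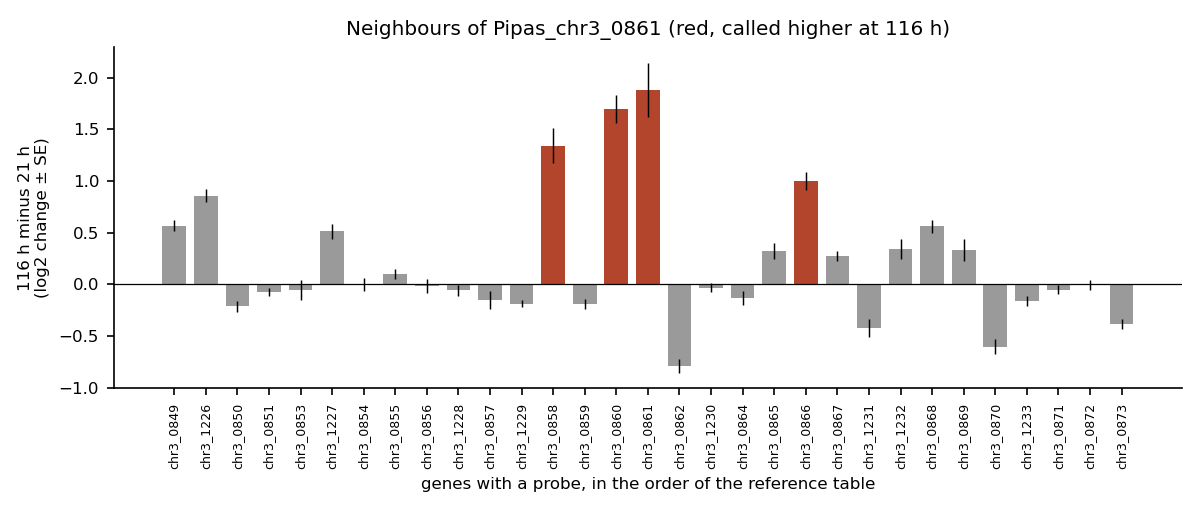
Log2 change from 21 h to 116 h (bars, with the standard error) for the probes of Pipas_chr3_0861 and its neighbors on chromosome 3, in the gene order of the reference table. The 4 red bars are called genes, and chr3_0859 and chr3_0862, next to them, are below 0.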

How the data were processed

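RNA of retentostat and chemostat cultures was hybridized against a reference pool on in-house 2-color oligonucleotide arrays. The authors deposited scanner output of Agilent Feature Extraction 11.5.1.1, with median spot and background signals as unnormalized intensities, marks for outliers, saturation and background, and a log10 ratio of red over green that the software computed after its own corrections. A deposited table of processed log2 ratios, made by the authors, was not used. The authors' methods name normexp with an offset of 50, LOESS, Aquantile, limma, Benjamini-Hochberg adjustment and a 2-fold criterion, and these steps were repeated here (limma 3.58.1, R 4.3.3, statmod 1.5.0) except Aquantile, which leaves log2 ratios as they are. The direction of each ratio followed the labeled dyes. On each of the 54 arrays the channel labeled as pool correlated better with the mean pool of the other arrays than the culture channel did.

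Control spots and spots marked as outliers (0.676%) were left out, spots were averaged per probe, and both arrays of a replicate were averaged. One model with 9 condition means was fitted to all 27 replicates (18 residual and 5.38 prior degrees of freedom), and p values were adjusted over all 5371 probes. The conditions whose paired arrays disagreed entered the shared estimate of the spread. The SE and p values of every comparison in this fit may be too small for that reason too. Precision is limited by how few arrays there are. Since replicate 3 of 21 h and of 116 h did not clearly stand as a separate sample, the comparison was also fitted with replicates 1 and 2 alone. Of the probes, 5040 matched a locus tag in the reference table and 331 did not, and 51 of the 55 called ones did. The rule for named genes was the first 2 increases and first 2 decreases that were above background and without overlap, since no product text was at hand, and the others were chosen after their values were seen. CBS 7435 reading frames were copied from a supplementary table of which only part was read. Pathway lists had been planned but could not be formed without gene names. The comparison, its genes and its lists were chosen with earlier results of these data known.

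Slides, scanners and dyes were examined as batches. Same-numbered replicates were not treated as pairs in the main fit. Their deviations from their group means correlated at 0.17, 0.04 and -0.23, which cannot show whether they came from the same culture. That the retentostat samples were taken in series from the same cultures was not modeled. Alternatives covered the background correction, normalization, filters, array-level models, thresholds and each replicate left out. The fit was tested on simulated data.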

Additional observations from a re-analysis of the deposited data

Results flagged for a closer look

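One result was singled out because a slower growth rate went with opposite changes in both culture systems. Pipas_c131_0020 was called higher in the chemostat at 0.025 h−1 than at 0.1 h−1 and called lower at 116 h than at 21 h of retention. The retention change minus the chemostat change was -2.15 ± 0.14 (SE, adjusted p = 4.09e-11 by limma). Calls in opposite directions were the condition for choosing the gene, so a clear difference was fixed beforehand. The p value is therefore no separate support. Without replicate 2 of 21 h the retention change was -0.97, and with the slide as a fixed term it was -0.93, both in the same direction but under 2-fold. Groups of 3 replicates were too small to be tested for outlying samples.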

How the results depend on the processing

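In 26 other settings, which reuse the arrays that chose the genes, none of the 55 genes changed direction. The number of calls stayed between 48 and 74 except where the criteria themselves were changed. Without a fold criterion 3186 probes were called at 116 h against 21 h (1587 higher, 1599 lower), 2395 at 65 h against 21 h, 624 at 116 h against 65 h and 2701 in the difference from the chemostats. In a test against a 2-fold change these numbers were 6 (5 higher, 1 lower), 2, 0 and 21, against 55, 16, 0 and 83. The log ratio of the scanner software gave 31 calls at 65 h against 21 h and 1 at 116 h against 65 h, and an offset of 0 gave 1 for the latter. The cause was not tested. Leaving out single replicates of 21 h or 116 h gave 48 to 65 calls, 23 to 34 higher and 24 to 32 lower, of which 46 to 53 were among the 55. Calls at 65 h against 21 h were then 12 to 21, and those in the difference from the chemostats 79 to 89. With median centring 47 of the 55 remained, and with the slide as a fixed term 48. The replicate number as a block left the 55 calls at 55, but the labels do not say whether a number stands for the same culture throughout. Omitting the third replicate of every condition and omitting replicate 3 of 65 h were chosen after seeing the data and gave 57 and 55 calls, with 50 and 55 of the 55 among them. Replicates 1 and 2 of 21 h and 116 h alone, also chosen after seeing the data, gave 56 calls with 49 of the 55. The alternative with mean spot signals was not run. The test against a 2-fold change ended 49 of the 55 calls, 24 calls were lost in at least 1 other setting, and 6 were kept in all. Named genes that fell short of 2-fold when a replicate was left out were, at 21 h, Pipas_chr2-1_0300 (0.92), Pipas_chr3_0866 (0.92), Pipas_chr2-2_0199 (-0.97) and Pipas_FragD_0010 (-0.99) without replicate 1, and Pipas_chr2-1_0642 (0.89) and Pipas_c131_0020 (-0.97) without replicate 2. At 116 h they were Pipas_chr2-1_0642 (0.70), Pipas_chr2-1_0300 (0.82), Pipas_chr3_0866 (0.92), Pipas_chr3_0840 (0.93) and Pipas_chr3_0230 (0.995) without replicate 1, Pipas_chr3_0007 (0.98) and Pipas_chr4_0883 (-0.97) without replicate 2, and Pipas_chr3_0866 (0.990), Pipas_FragD_0010 (-0.97) and Pipas_chr2-2_0199 (-0.99) without replicate 3.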

Other observations

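Replicate 3 lay between the other replicates more often than the others did at both sampling points. At 21 h its log2 ratio was the middle one of the 3 in 62.3% of 5371 probes, against 20.1% for replicate 1 and 17.6% for replicate 2. At 116 h the shares were 52.7, 27.6 and 19.7%. Across probes, replicate 3 minus the mean of replicates 1 and 2 had an SD of 0.070 at 21 h and 0.063 at 116 h, while replicate 1 minus replicate 2 had an SD of 0.196 and 0.143. At 65 h the shares were nearly even (32.6, 31.4 and 35.9%), and at 545 h replicate 2 was the middle one in 67.2%. Of the 55 called genes, the Cy5 array of replicate 3 was closer to that of replicate 1 in 45 genes at 21 h and 46 at 116 h, and the Cy3 array was closer to that of replicate 2 in 41 and 44. The labels and methods do not say how the third replicate was obtained from 2 cultures. In the chemostat at 0.1 h−1, the difference between replicates 1 and 2 measured with one dye correlated with that measured with the other at r = -0.77 across probes. At 21 h r was 0.76 and at 116 h 0.56. Arrays paired under one replicate number thus did not show the same sample difference in that chemostat. Its replicates 1 and 2 differed with an SD of 0.244 (Cy3 arrays) and 0.197 (Cy5 arrays), but their means with 0.078. The SDs given above for that chemostat are therefore likely too small. In the chemostat at 0.05 h−1, r was -0.70 for replicates 1 and 2, 0.30 for 1 and 3 and -0.17 for 2 and 3. At 65 h it was 0.04, 0.11 and -0.01 for the same pairs. At 545 h it was -0.27, 0.66 and 0.06. The SDs given for these 3 conditions may thus be too small as well.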
